A study of Homo sapiens with 10 samples.

Results

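The hypoxia pathway was followed through 36 genes in HCT116 cells, a human colorectal cancer line. The genes were chosen by name, with earlier results of these data known, so their shares below are descriptions. They comprise the subunits of the hypoxia-inducible factors (HIF), the proteins that control them and genes that are widely used as HIF targets. RNA-seq values were taken from 10 libraries in 2 experiments. In the *ZMAT3* experiment 3 libraries came from *ZMAT3*-WT cells and 3 from *ZMAT3*-KO cells, in which CRISPR/Cas9 and a pair of guide RNAs had been aimed at the p53 response element in an intron of *ZMAT3*. Cells of both genotypes were grown from single cells after puromycin selection, and a single knockout clone was used, so clone and genotype cannot be told apart. In the knockdown experiment HCT116 cells were transfected with a control siRNA (siCTRL, 2 libraries) or with a pool of 4 siRNAs against p53 (sip53, 2 libraries), and the time of harvest of these libraries is not given in the sources used here. All cells were kept in DMEM with serum, and beyond the puromycin selection no drug and no low-oxygen treatment is named for these libraries. The labels of the *ZMAT3* libraries also carry the abbreviations EV and unt, which were not explained. Of the 36 genes, 34 were among the 13029 genes of the *ZMAT3* table, in which *LOX* and *RORA* were not listed, and all 36 were among the 17642 genes of the siRNA table.

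HIF is a dimer of an oxygen-sensitive alpha subunit, such as HIF1A or EPAS1 (HIF-2 alpha), and the stable partner ARNT. With oxygen present, the prolyl hydroxylases EGLN1 and EGLN3 mark the alpha subunit, the ubiquitin ligase subunit VHL binds the marked protein, and it is degraded, so control lies mainly in protein stability and an mRNA level does not give HIF activity. When oxygen falls, the dimer binds short DNA elements with the core ACGTG or GCGTG and raises genes for pH control, blood vessel growth, collagen maturation, a shift of pyruvate away from mitochondria and removal of mitochondria. In colorectal tumors this response is known from the poorly perfused regions, where carbonic anhydrase IX is a common marker.

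Promoter windows of 300 bases (250 before and 50 after the annotated start, RefSeq, GRCh38.p14) were matched by symbol for 29 of the 36 genes. *VHL*, *VEGFA*, *JMJD6*, *HILPDA*, *NDRG1*, *BNIP3L* and *ZNF395* were not matched. The letters ACGTG were searched on both strands (CACGT on the reverse one), and so were the letters GCGTG (reverse CACGC). A palindromic CACGTG holds ACGTG on both strands, and a gene with several starts was counted once if any of its windows held the letters. ACGTG was present for 19 of the 29 genes (65.5%), against 24.9% of the 27305 genes with a window. GCGTG was present for 15 (51.7%), against 40.6% of all genes. One or the other was present for 24 (82.8%), against 52.4% of all genes, and *ARNT*, *EGLN3*, *P4HA2*, *RORA* and *TMEM45A* held neither in these windows. These shares are descriptions of letters in a window and carry no test. The sequences below are stretches of 60 bases before the start, shown for genes that were called in either experiment and held a match there. The stretch of *PDK1* comes from its window with a match, while its other window, chr2:172555123-172555422 at an earlier start, held neither core. Of the called genes, *TMEM45A*, *EGLN3* and *ARNT* held neither core and *NDRG1* and *JMJD6* were not matched, so none is shown for them. Genes that were not called, such as *AK4*, *WSB1* and *DDIT4*, held the letters too. Whether the letters went with a change in RNA was not tested. For *CA9*, *P4HA1*, *PDK1* and *KDM3A* the longer stretch met an annotated exon and 30 bases are shown. They are written 5′ to 3′ along the gene and capitals mark each complete match on either strand.

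*CA9*, chr9:35673895-35673924, plus strand: ctctcgtttccaatgCACGTacagcccgta
*CA12*, chr15:63382037-63382096, minus strand: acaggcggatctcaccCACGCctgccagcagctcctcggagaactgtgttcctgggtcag
*PDK1*, chr2:172556060-172556089, plus strand: ccctgctgcccgcCACGTccctCACGTacc
*ADM*, chr11:10304942-10305001, plus strand: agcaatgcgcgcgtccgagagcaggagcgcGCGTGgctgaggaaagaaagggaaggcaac
*BHLHE40*, chr3:4979258-4979317, plus strand: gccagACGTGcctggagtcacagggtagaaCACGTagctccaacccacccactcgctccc
*ANKRD37*, chr4:185396668-185396727, plus strand: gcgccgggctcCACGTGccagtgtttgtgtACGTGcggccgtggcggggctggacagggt
*ANGPTL4*, chr19:8363905-8363964, plus strand: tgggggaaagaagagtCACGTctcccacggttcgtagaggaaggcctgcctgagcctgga
*P4HA1*, chr10:73096938-73096967, minus strand: tggtgtgatcgagctCACGTagcgagggct
*BNIP3*, chr10:131982027-131982086, minus strand: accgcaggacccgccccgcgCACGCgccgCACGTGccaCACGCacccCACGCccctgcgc
*KDM3A*, chr2:86441330-86441359, plus strand: ggtccgggaggctgtGCGTGtcttgtgaga
*KDM4B*, chr19:4968863-4968922, plus strand: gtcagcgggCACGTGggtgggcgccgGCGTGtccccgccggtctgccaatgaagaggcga

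The match of *CA9* lay at position -18 from its start and that of *P4HA1* at -86. *BNIP3* held a CACGTG with CACGC on either side, and *KDM4B*, which was lower after p53 knockdown, and *ANKRD37*, which was higher, held a CACGTG as well.

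The labels were checked with *ZMAT3* and with *CDKN1A*, a p53 target. *ZMAT3* was lower in the 3 *ZMAT3*-KO libraries (2.25, 2.34 and 2.20 log2 CPM) than in the *ZMAT3*-WT libraries (5.00, 5.20 and 5.26). After transfection with sip53, *CDKN1A* was at 34.22 and 37.67 FPKM against 525.01 and 481.06 with siCTRL, and *ZMAT3* at 3.16 and 1.97 against 12 and 13.62. All 8 epithelial marker genes were listed in both tables. Their summed level was 3330 to 3422 CPM in *ZMAT3*-KO and 5941 to 6282 CPM in *ZMAT3*-WT libraries, and the part of this difference in the results was not tested. Not all 8 markers shared it. Over the *ZMAT3* libraries *EPCAM* spanned only 8.508 to 8.582 log2 CPM, *CDH1* 6.281 to 6.41 and *CDX2* 4.427 to 4.594. The spans were 10.68 to 11.72 for *KRT8*, 9.626 to 10.5 for *KRT18*, 7.789 to 9.642 for *KRT19*, 5.851 to 6.632 for *ELF3* and 6.555 to 6.915 for *CLDN7*. In the siRNA libraries the sum was 3728 to 4345 FPKM with sip53 and 3877 to 4143 FPKM with siCTRL. Of 5 immune markers none were listed in the *ZMAT3* table, and the 2 listed in the siRNA table summed to at most 2.86 FPKM. The values of the *ZMAT3* libraries follow a common distribution, and the depth of all 10 libraries is unknown. The unit of the siRNA values is not named in the table, and they were read as FPKM (fragments scaled by transcript length and library size), which any comparison of levels between genes relies on. In bulk RNA, a change in the share of cells with a transcript and a change in its amount per cell cannot be told apart.

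The 4 siRNA libraries did not group by treatment alone. Across the genes tested, siCTRL replicate 2 was closer to sip53 replicate 1 (Pearson's r = 0.9625) than the sip53 replicates were to each other (r = 0.9582). The genes share these libraries, so r is a description. Of the 34 hypoxia genes tested, 27 differed between replicates 1 and 2 in opposite directions in the siCTRL and the sip53 libraries, as did 75.1% of all genes tested. *HIF1A* showed the pattern most strongly, with 170.5 and 88.52 FPKM in siCTRL replicates 1 and 2 and 72.88 and 122.43 FPKM in sip53 replicates 1 and 2. For *CA9*, *ANGPTL4* and *P4HA1* the replicates of either treatment differed by at most 0.18 on the log2 scale. The values of the genes below are therefore given for each library.

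**Figure D1:**
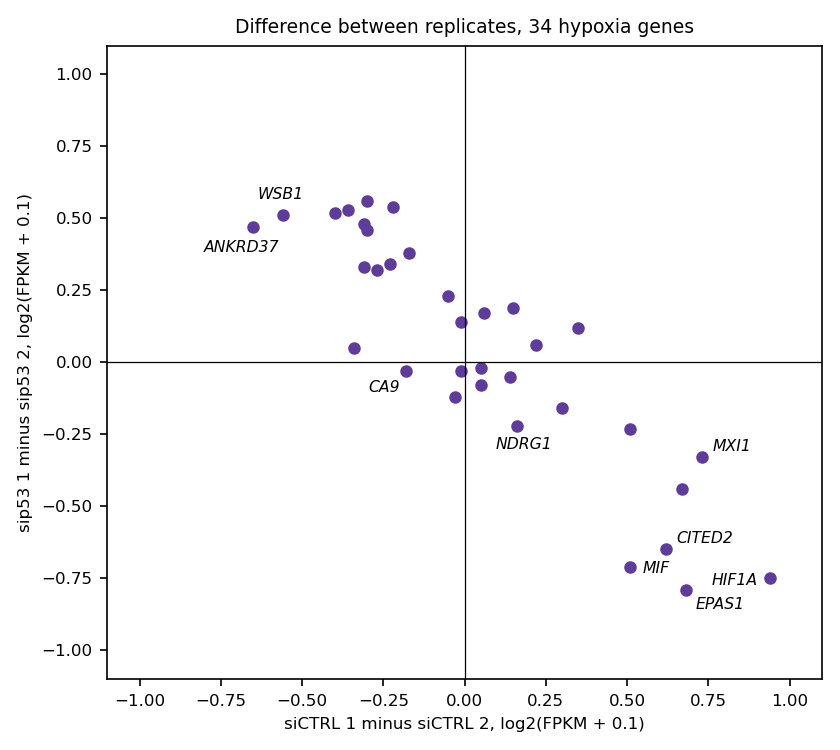
Difference between replicate 1 and replicate 2 of the siCTRL libraries (x axis) and of the sip53 libraries (y axis) for the 34 hypoxia genes tested, both on the log2(FPKM + 0.1) scale, 1 point per gene. Of the 34 points, 27 have opposite signs on the 2 axes, with *HIF1A* at 0.94 and -0.75, while *CA9* lies near the centre.

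In *ZMAT3*-KO cells the carbonic anhydrase genes *CA9* and *CA12* rose most, by 22.3-fold and 3.7-fold. *NDRG1*, *TMEM45A* and *PDK1* rose by 1.56- to 1.82-fold, and *BHLHE40* and *ADM* fell to 0.442 and 0.445 of their *ZMAT3*-WT level. These 7 were called by limma, with an adjusted p under 0.05 and at least 1.5-fold. The 5 higher genes were 14.7% of the 34, against 4.6% of all 13029 genes tested, and the 2 lower genes were 5.88%, against 4.37%. At an adjusted p of 0.05 with no fold threshold, 17 of the 34 (50%) were higher, against 28.7% of all genes, and 6 (17.6%) were lower, against 30.1%. The median log2 fold change was 0.15 over the 34 genes and -0.005 over all genes. These counts of 5 and 2 held with any of the 6 libraries left out, except that *P4HA2* joined the lower genes, making 3, without *ZMAT3*-WT replicate 1.

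After p53 knockdown *CA9* was higher by 3.72-fold, and *ANKRD37*, *NDRG1* and *ANGPTL4* were higher by 2.38-, 2.08- and 1.83-fold. The order depends on the pseudocount, since with 1 FPKM in place of 0.1 the log2 fold change of *CA9* was 0.97, below the 1.05 of *NDRG1* and of *ANKRD37*. Judged by unadjusted limma p-values under 0.05, 10 of the 34 genes tested (29.4%) were higher with sip53, against 5.86% of the 14274 genes tested. The lower genes were *KDM4B* and *ARNT*, 5.88% of the 34 against 9.28% of all genes. With Benjamini-Hochberg adjustment none of the 34 passed 0.05 in limma, where 0.035% of all genes were called higher and 0.238% lower, and the smallest adjusted p of a hypoxia gene was 0.123. The sip53 pair of values was wholly above the siCTRL pair for 15 of the 34 genes (44.1%), against 20.1% of all genes, and wholly below for *KDM4B* and *ARNT*, against 26.3%. The median log2 fold change was 0.23 over the 34 genes and -0.040 over all genes tested. The count of 10 fell to 5 without siCTRL replicate 1, to 4 without siCTRL replicate 2 and to 5 without sip53 replicate 1, and the count of 2 lower genes to 0 without sip53 replicate 2 and to 1 without either siCTRL library. *CA9*, *NDRG1*, *ANGPTL4* and *ANKRD37* passed with any 1 library left out. With the median gene of every library set to the same value, 12 of the 34 were higher and 2 lower, and the split over all genes went from 836 higher and 1325 lower to 1120 and 1048. *LOX*, at 0.02 to 0.06 FPKM, and *RORA*, at 0 to 0.04 FPKM, were below the filter of 0.5 FPKM and were not tested.

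**Figure D2:**
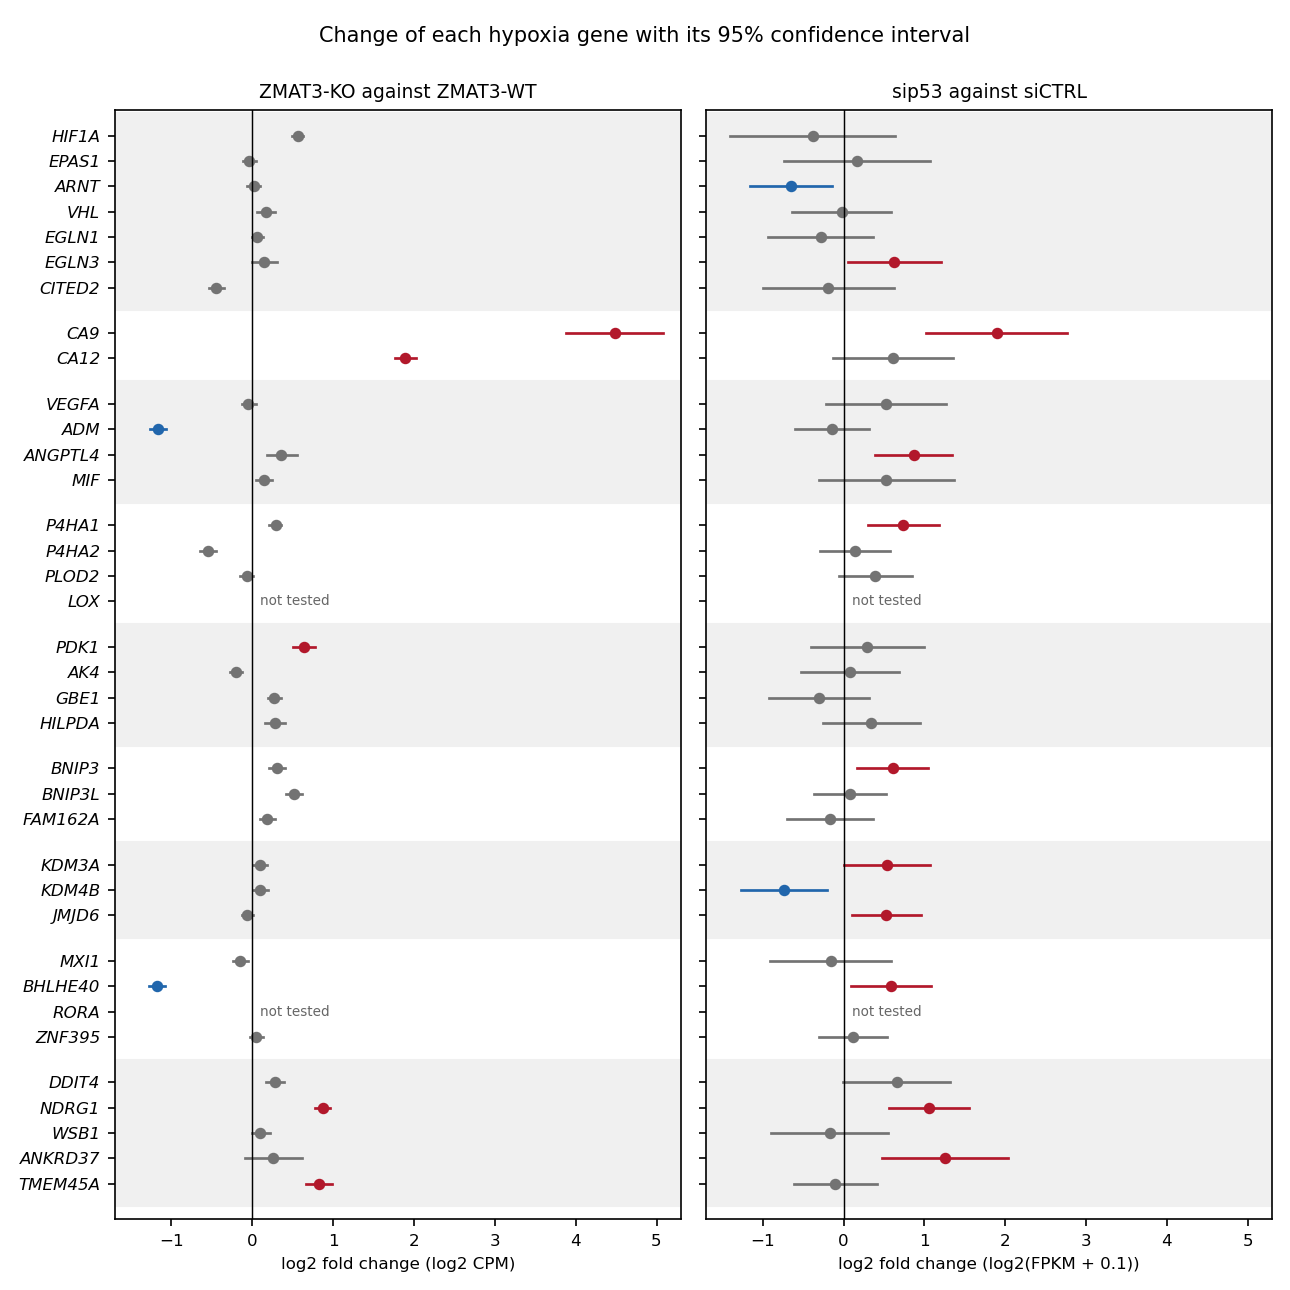
Log2 fold change of each hypoxia gene with its 95% confidence interval in *ZMAT3*-KO against *ZMAT3*-WT cells (left, log2 CPM) and sip53 against siCTRL (right, log2(FPKM + 0.1)), grouped by role in shaded and white bands. Red marks genes called higher and blue genes called lower (adjusted p of 0.05 and 1.5-fold on the left, unadjusted p of 0.05 on the right). The intervals are wider on the right, with 2 libraries a group, and *CA9* stands farthest right in both panels, at 4.48 and 1.90.

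None of the 7 HIF subunits and proteins that control them was past 1.5-fold in *ZMAT3*-KO cells. *HIF1A* and *VHL* were higher and *CITED2* was lower at an adjusted p under 0.05 in limma. *HIF1A*, the oxygen-sensitive subunit, read 7.61, 7.69 and 7.67 log2 CPM in *ZMAT3*-WT and 8.20, 8.26 and 8.19 in *ZMAT3*-KO libraries. The groups did not overlap, and *HIF1A* rose by 1.47-fold (log2 fold change 0.56, standard error, SE, 0.030, limma adjusted p = 1.01e-08), just under the fold threshold. Its paralog *EPAS1* read 5.76, 5.74 and 5.64 log2 CPM in *ZMAT3*-WT and 5.69, 5.68 and 5.65 in *ZMAT3*-KO libraries, which overlapped, with a log2 fold change of -0.04 (95% confidence interval -0.12 to 0.04). The partner subunit *ARNT* overlapped too, at 5.39, 5.43 and 5.44 against 5.45, 5.47 and 5.41 log2 CPM (0.02, interval -0.06 to 0.10). In the knockdown experiment the *HIF1A* values given above overlapped between siCTRL and sip53, its log2 fold change was -0.38 (interval -1.40 to 0.64), and it was 0.09 without siCTRL replicate 1. *EPAS1* was at 27.44 and 17.11 FPKM with siCTRL and at 18.45 and 32.02 with sip53 (0.17, interval -0.74 to 1.07), and its direction turned to -0.17 without siCTRL replicate 2 and to -0.23 without sip53 replicate 2. *ARNT* alone of the subunits was lower with sip53, at 11.12 and 10.21 FPKM against 18.88 and 14.84. Both sip53 libraries lay below both siCTRL libraries, a fold change of 0.639 (limma unadjusted p = 0.0218, adjusted p = 0.244), which did not pass without siCTRL replicate 1 or without sip53 replicate 2.

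Of the negative regulators, *VHL* read 5.16, 5.28 and 5.18 log2 CPM in *ZMAT3*-WT and 5.34, 5.47 and 5.32 in *ZMAT3*-KO libraries. That is a small rise of 1.13-fold in which the groups did not overlap (limma adjusted p = 0.00942). *VHL* was at 14.42 and 17.94 FPKM with siCTRL and at 18.73 and 13.37 with sip53 (log2 fold change -0.02, interval -0.64 to 0.59), and the groups overlapped. The prolyl hydroxylase *EGLN1* did not pass in *ZMAT3*-KO cells, with 6.34, 6.42 and 6.39 log2 CPM against 6.47, 6.43 and 6.43 (log2 fold change 0.06, interval -0.01 to 0.13). Its FPKM of 17.72 and 21.91 with siCTRL overlapped the 19.72 and 13.31 with sip53. *EGLN3*, itself a HIF target, read 2.51, 2.61 and 2.46 log2 CPM in *ZMAT3*-WT and 2.72, 2.61 and 2.70 in *ZMAT3*-KO libraries and did not pass (limma adjusted p = 0.0899). With sip53 it was higher, at 7.99 and 6.34 FPKM against 4.1 and 5.09 with siCTRL, a 1.55-fold difference (limma unadjusted p = 0.0369) that was lost without either siCTRL library, without sip53 replicate 1, or with no filter on low values. *CITED2*, which competes with HIF for the coactivators CBP and p300, went the other way in *ZMAT3*-KO cells. It fell from 5.23, 5.17 and 5.16 to 4.79, 4.67 and 4.76 log2 CPM, to 0.733 of the *ZMAT3*-WT level (limma adjusted p = 2.51e-06), under the fold threshold. In the siRNA libraries *CITED2* read 32.55 and 21.11 FPKM (siCTRL) against 18.36 and 28.83 FPKM (sip53), and the groups overlapped.

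The carbonic anhydrases hydrate CO2 at the cell surface and help tumor cells keep their internal pH. *CA9* lies on chromosome 9 from 35673928 to 35681159, plus strand (hg38, GENCODE release 44). It was nearly silent in *ZMAT3*-WT libraries, at -2.93, -1.66 and -1.96 log2 CPM, and stood at 2.22, 2.18 and 2.50 in *ZMAT3*-KO libraries. The group means were -2.18 ± 0.66 and 2.30 ± 0.17 (SD, n = 3 each). Every *ZMAT3*-KO library was above every *ZMAT3*-WT library by more than 3 log2 units, and *CA9* had a log2 fold change of 4.48 (SE 0.28, limma adjusted p = 3.45e-08). Because the *ZMAT3*-WT level is so low, a pseudocount of 1 CPM brought the log2 fold change to 2.26. In the knockdown experiment *CA9* was at 0.36 and 0.42 FPKM with siCTRL and at 1.7 and 1.74 with sip53. Both sip53 libraries were about alike and far above both siCTRL libraries, with a log2 fold change of 1.90 (SE 0.35, limma unadjusted p = 0.00222, adjusted p = 0.123), which was 0.97 with a pseudocount of 1 FPKM. The siCTRL values were under the filter of 0.5 FPKM, so *CA9* entered the test through its sip53 values, and it was also called with no filter. Exons of *ARHGEF39*, on the opposite strand, share 571 bases with *CA9*. In the strand-specific *ZMAT3* libraries *ARHGEF39* had a log2 fold change of -0.15. No strand setting is given for the siRNA libraries, where *ARHGEF39* rose with sip53 by 0.58 (limma unadjusted p = 0.0211, adjusted p = 0.242). Its mean there went from 2.700 to 3.283 on the log2(FPKM + 0.1) scale, well above *CA9*, whose mean FPKM was 0.39 and then 1.72. Reads of *ARHGEF39* could therefore add to the *CA9* values with sip53, and their part was not tested.

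*CA12*, on chromosome 15 from 63321378 to 63381846, minus strand, also rose in *ZMAT3*-KO cells, from 2.61, 2.67 and 2.65 to 4.51, 4.64 and 4.44 log2 CPM. The replicates of each genotype lay close together and far from those of the other, and *CA12* had a log2 fold change of 1.89 (SE 0.060, limma adjusted p = 6.02e-11). With sip53 it was at 1.75 and 1.48 FPKM against 1 and 1.04 with siCTRL. The groups did not overlap, but the 1.53-fold difference did not pass (limma unadjusted p = 0.0892) unless the variance trend was left out. The pair also differed in level, *CA9* being at 0.382 of *CA12* in FPKM with siCTRL and at 1.07 of it with sip53.

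**Figure D3:**
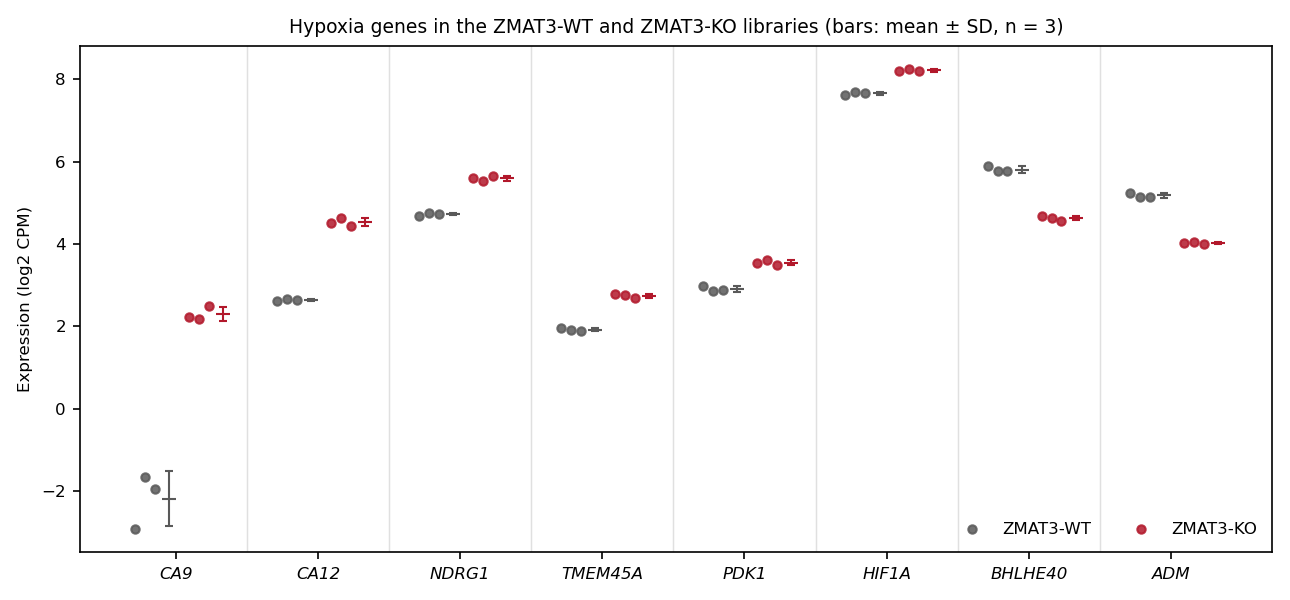
Expression (log2 CPM) of 8 hypoxia genes in each of the 3 *ZMAT3*-WT (grey) and 3 *ZMAT3*-KO (red) libraries, with the mean and SD (n = 3) to the right of the points. *CA9* moves from about -2 to above 2, *CA12*, *NDRG1*, *TMEM45A*, *PDK1* and *HIF1A* are higher in every *ZMAT3*-KO library, and *BHLHE40* and *ADM* are lower in every one.

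Among the secreted proteins, *ADM* encodes adrenomedullin, a vasodilator peptide, and lies on chromosome 11 from 10305073 to 10307397. It read 5.25, 5.15 and 5.15 log2 CPM in *ZMAT3*-WT and 4.02, 4.04 and 3.99 in *ZMAT3*-KO libraries. All 3 *ZMAT3*-KO libraries were lower by about 1 log2 unit, and *ADM* fell by 1.17 on the log2 scale (SE 0.044, limma adjusted p = 2.84e-10). In the siRNA libraries it overlapped, at 16.41 and 14.81 FPKM with siCTRL and 15.15 and 13.25 with sip53. *ANGPTL4*, an inhibitor of lipoprotein lipase, rose in *ZMAT3*-KO cells by 1.29-fold, from 2.23, 1.97 and 2.06 to 2.46, 2.43 and 2.47 log2 CPM (limma adjusted p = 0.00288). Its increase with sip53 was larger and its replicates were close, with 3.6 and 3.47 FPKM against 6.48 and 6.59, a 1.83-fold difference (limma unadjusted p = 0.00486, adjusted p = 0.159). *VEGFA*, the angiogenic growth factor most often read as a HIF target, did not pass in either experiment. Its log2 fold change was -0.05 in *ZMAT3*-KO cells (interval -0.13 to 0.04) and 0.52 with sip53 (interval -0.22 to 1.27), and the latter passed without siCTRL replicate 1, at 0.86. *MIF*, a cytokine and the most abundant of the 36 transcripts in siCTRL libraries at 668.63 and 469.54 FPKM, had log2 fold changes of 0.14 and 0.53, of which the former passed an adjusted p of 0.05 in limma (0.0215).

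The collagen-modifying enzymes split by paralog. *P4HA1* and *P4HA2* encode the catalytic subunits of collagen prolyl 4-hydroxylase, and *PLOD2* encodes a collagen lysyl hydroxylase. In *ZMAT3*-KO cells *P4HA1* rose from 4.89, 4.93 and 4.94 to 5.21, 5.20 and 5.22 log2 CPM, which is 1.22-fold (limma adjusted p = 2.44e-05). *P4HA2* fell in the same libraries to 0.683 of its *ZMAT3*-WT level (log2 fold change -0.55, limma adjusted p = 7.14e-07), with no overlap for either gene. With sip53, *P4HA1* was at 86.78 and 78.9 FPKM against 49.34 and 49.73, or 1.67-fold higher (limma unadjusted p = 0.00696, adjusted p = 0.174), a call lost without either siCTRL library. *P4HA2* had a log2 fold change of 0.14 (interval -0.29 to 0.57). The *P4HA1* to *P4HA2* ratio was 1 in FPKM with siCTRL and 1.53 with sip53. *PLOD2* did not pass in either experiment (-0.07 and 0.39).

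Of the metabolic genes, *PDK1* encodes a kinase that shuts the pyruvate dehydrogenase complex and lies on chromosome 2 from 172555373 to 172608669. It rose in *ZMAT3*-KO cells from 2.98, 2.85 and 2.88 to 3.54, 3.61 and 3.48 log2 CPM. The groups were well apart, with a 1.56-fold increase (SE 0.063 on the log2 scale, limma adjusted p = 2.80e-06), which dropped below 1.5-fold with a pseudocount of 1 CPM. In the siRNA libraries *PDK1* overlapped, at 3.25 and 4.19 FPKM with siCTRL and 5.48 and 3.77 with sip53. *GBE1*, the glycogen branching enzyme, and *HILPDA*, a lipid droplet protein, each rose by about 1.2-fold in *ZMAT3*-KO cells (log2 fold changes 0.27 and 0.28), and *AK4*, a mitochondrial adenylate kinase, fell to 0.869. None of these 3 passed with sip53, where the log2 fold changes were -0.30, 0.34 and 0.08.

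The mitophagy receptors *BNIP3* and *BNIP3L*, which mark mitochondria for removal, both rose in *ZMAT3*-KO cells by less than 1.5-fold. *BNIP3* went from 5.42, 5.39 and 5.47 to 5.70, 5.67 and 5.83 log2 CPM (1.24-fold, limma adjusted p = 7.47e-05). *BNIP3L* had a log2 fold change of 0.52 (1.43-fold, limma adjusted p = 8.53e-07), and *FAM162A*, a mitochondrial protein, one of 0.18 (limma adjusted p = 0.00323). After p53 knockdown only *BNIP3* of these passed. Its values were 48.2 and 43.71 FPKM with siCTRL and 68.92 and 71.22 with sip53, 1.53-fold higher with no overlap (limma unadjusted p = 0.0156, adjusted p = 0.217), though not with any of the 4 libraries left out. The annotation holds 44 pseudogenes named after *BNIP3*, which could share reads with it. It also holds 5 named after *AK4* and 1 each after *HIF1A*, *PDK1*, *KDM3A*, *EGLN1* and *EGLN3*.

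The dioxygenases moved apart with sip53 and hardly moved in *ZMAT3*-KO cells. *KDM3A* and *KDM4B* are histone lysine demethylases, and *JMJD6* is a related oxygenase. *KDM3A* read 5.02, 5.07 and 5.10 log2 CPM in *ZMAT3*-WT and 5.13, 5.16 and 5.19 in *ZMAT3*-KO libraries (1.07-fold, limma adjusted p = 0.0488). *KDM4B* read 4.85, 4.78 and 4.92 against 4.97, 4.95 and 4.95 (1.07-fold, limma adjusted p = 0.059), and *JMJD6* 6.08, 6.14 and 6.12 against 6.07, 6.02 and 6.08, with a log2 fold change of -0.06. With siCTRL, *KDM3A* was at 15 and 18.1 FPKM and *KDM4B* at 12.68 and 14.88. With sip53 *KDM3A* was higher at 26.9 and 21.52 (1.46-fold, limma unadjusted p = 0.0461) while *KDM4B* was lower at 9.22 and 7.27 (0.599 of siCTRL, limma unadjusted p = 0.0154). The ratio of the 2 transcripts was 1.18 and 1.22 in the siCTRL libraries and 2.92 and 2.96 in the sip53 libraries, so within each treatment the replicates were nearly alike. *JMJD6* was at 29.33 and 29.91 FPKM with siCTRL and 41.04 and 44.47 with sip53, 1.44-fold higher (limma unadjusted p = 0.025). *JMJD6* did not pass with any library left out, *KDM3A* passed without sip53 replicate 2 and with none of the other 3 left out, and *KDM4B* did not pass without siCTRL replicate 2 or sip53 replicate 2.

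The transcriptional repressor *BHLHE40* (DEC1), on chromosome 3 from 4979437 to 4985323, changed in opposite directions in the 2 experiments. It fell in *ZMAT3*-KO cells from 5.90, 5.76 and 5.76 to 4.68, 4.64 and 4.57 log2 CPM. Every *ZMAT3*-KO library was lower by more than 1 log2 unit, which gave a log2 fold change of -1.18 (SE 0.047, limma adjusted p = 4.90e-10). With sip53 it was at 29.91 and 33.51 FPKM against 23.3 and 18.94 with siCTRL, 1.5-fold higher (limma unadjusted p = 0.0276, adjusted p = 0.265), and it did not pass with any of the 4 libraries left out. The MYC antagonist *MXI1* fell to 0.904 in *ZMAT3*-KO cells (limma adjusted p = 0.00942) and had a log2 fold change of -0.16 with sip53 (interval -0.91 to 0.59). *ZNF395*, a DNA-binding zinc finger protein, passed in neither, with log2 fold changes of 0.05 and 0.12.

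Of the 5 growth and stress regulators, *NDRG1* was called higher in both experiments. *NDRG1*, which is linked to growth arrest and metastasis, lies on chromosome 8 from 133237175 to 133302022 and rose in *ZMAT3*-KO cells from 4.69, 4.75 and 4.74 to 5.61, 5.52 and 5.64 log2 CPM. That is a log2 fold change of 0.87 (SE 0.041, limma adjusted p = 2.83e-09) with no overlap. With sip53 its already high level of 131.96 and 118.44 FPKM was 240.81 and 280.49 FPKM (2.08-fold, limma unadjusted p = 0.00233, adjusted p = 0.123). Exons of a long non-coding RNA gene on the same strand share 753 bases with *NDRG1*, and the part of its reads was not tested. *TMEM45A*, a transmembrane protein gene on chromosome 3 from 100492619 to 100577444, rose in *ZMAT3*-KO cells from 1.97, 1.90 and 1.89 to 2.79, 2.75 and 2.69 log2 CPM (1.77-fold, limma adjusted p = 1.31e-06). It did not follow in the siRNA libraries, where 7.22 and 9.15 FPKM with siCTRL overlapped 7.71 and 7.42 with sip53. *ANKRD37*, an ankyrin repeat gene, was called with sip53 and not in *ZMAT3*-KO cells. Its log2 CPM of 0.76, 0.22 and 0.53 in *ZMAT3*-WT overlapped 0.88, 0.63 and 0.78 in *ZMAT3*-KO libraries (log2 fold change 0.26, interval -0.09 to 0.62). With sip53 it was at 8.92 and 6.4 FPKM against 2.47 and 3.92 with siCTRL (2.38-fold, limma unadjusted p = 0.00832, adjusted p = 0.181). Exons of *UFSP2*, on the opposite strand, share 909 bases with *ANKRD37*, and *UFSP2* had a log2 fold change of -0.17 with sip53. *DDIT4* (REDD1), an inhibitor of mTORC1, rose by 1.21-fold in *ZMAT3*-KO cells (limma adjusted p = 0.000374) and with sip53 reached 182.15 and 126.77 FPKM against 83.89 and 110.62, which did not overlap and did not pass (limma unadjusted p = 0.0525), although it passed without sip53 replicate 2. *WSB1*, a ubiquitin ligase adaptor, passed in neither experiment, with log2 fold changes of 0.10 and -0.17.

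**Figure D4:**
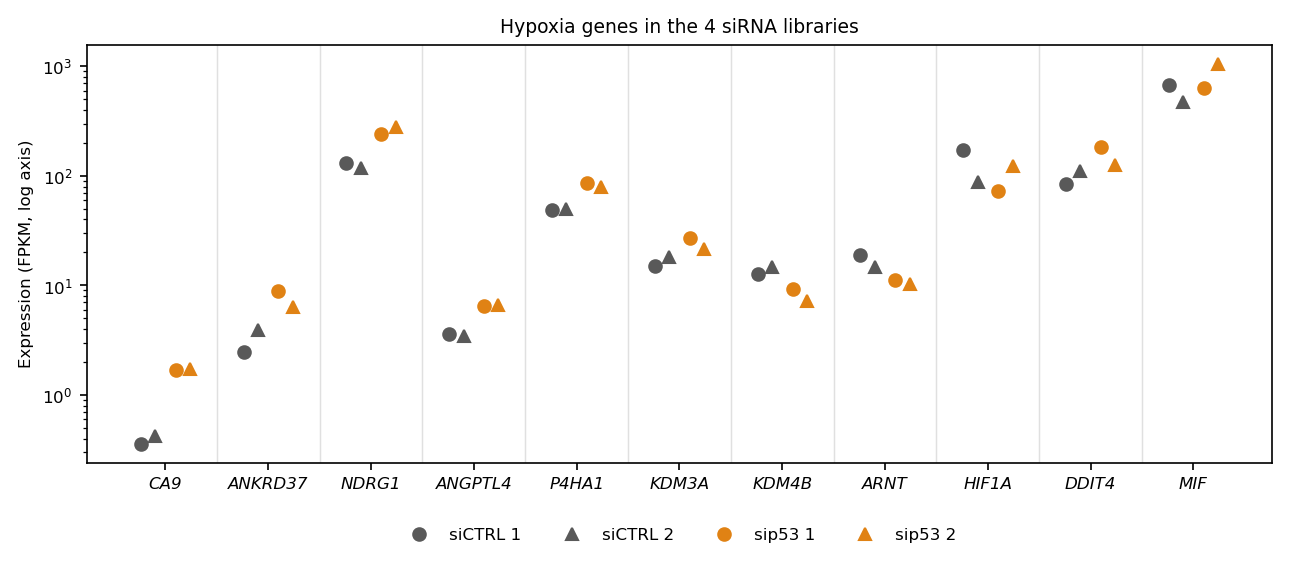
Expression (FPKM, log axis) of 11 hypoxia genes in the siCTRL (grey) and sip53 (orange) libraries, with circles for replicate 1 and triangles for replicate 2. From *CA9* to *KDM3A* both sip53 libraries lie above both siCTRL libraries, for *KDM4B* and *ARNT* they lie below, and for *HIF1A* and *MIF* the libraries overlap.

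The experiments share no library and were compared gene by gene. Of the 34 hypoxia genes tested in both, 18 (52.9%) had log2 fold changes of the same sign, against 47.9% of the 11370 genes tested in both. With a limma p under 0.05, unadjusted, in both fits, *CA9*, *ANGPTL4*, *P4HA1*, *BNIP3*, *KDM3A* and *NDRG1* were higher in both, 6 genes or 17.6%, against 1.84% of all genes. The sip53 calls of *P4HA1*, *BNIP3* and *KDM3A* were each lost without either siCTRL library, and *CA9* entered the siRNA test through its sip53 values. None were lower in both, against 3.08% of all genes, and *KDM4B* and *BHLHE40* passed in opposite directions, 5.88% of the 34 against 5.82% of all genes. Of the 6 shared genes, *CA9* and *NDRG1* were past 1.5-fold in both experiments, while *ANGPTL4*, *P4HA1*, *BNIP3* and *KDM3A* were at 1.07- to 1.29-fold in *ZMAT3*-KO cells and at 1.46- to 1.83-fold with sip53. *CA12*, *TMEM45A* and *PDK1*, which were higher, and *ADM*, which was lower, met the adjusted p and 1.5-fold rule in *ZMAT3*-KO cells. With sip53 they did not pass an unadjusted p of 0.05 in limma. *ANKRD37*, *EGLN3* and *JMJD6*, which were higher, and *ARNT*, which was lower, passed that unadjusted p with sip53 and not in *ZMAT3*-KO cells. These rules are unlike, so the lists do not compare the experiments at 1 threshold. The difference between the experiments was not tested for any gene, since the tables were normalized separately.

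**Figure D5:**
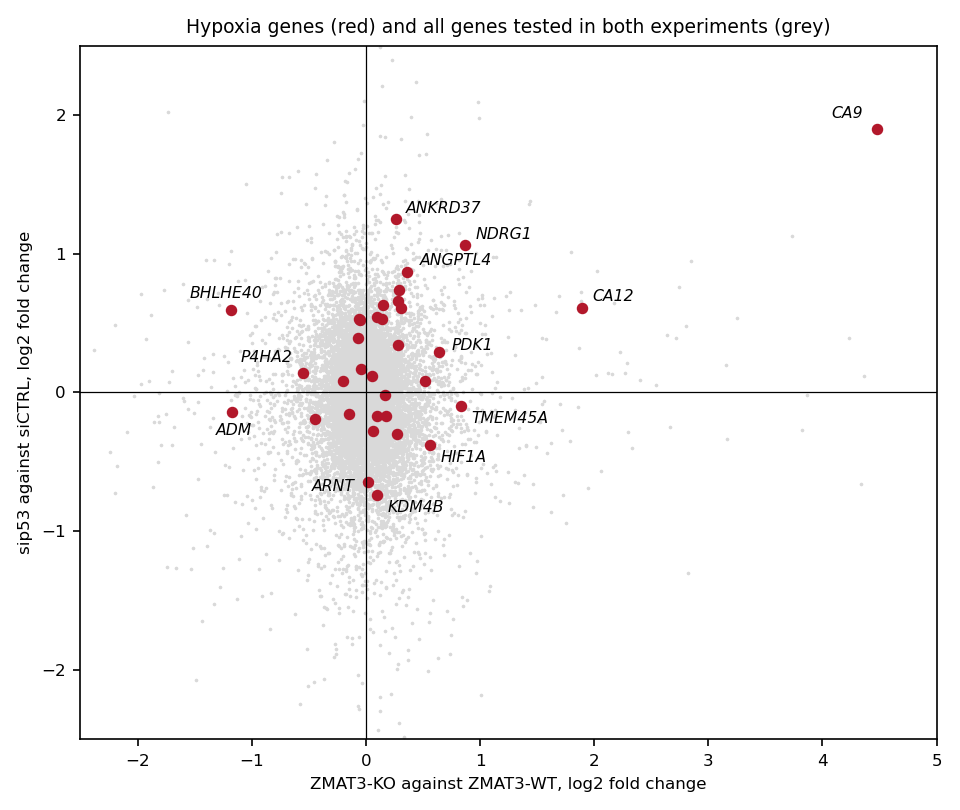
Log2 fold change in *ZMAT3*-KO against *ZMAT3*-WT cells (x axis) and in sip53 against siCTRL cells (y axis) for the 34 hypoxia genes (red) and all 11370 genes tested in both experiments (grey, genes outside the axes not drawn). *CA9* lies alone at the upper right, *NDRG1* and *CA12* are positive on both axes, and *BHLHE40* is negative on the x axis and positive on the y axis.

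A further 55 genes of the pathway, none of them among the 36, were followed for the HIF machinery, glycolysis and glucose uptake, glycogen metabolism and other HIF targets. They too were chosen with earlier results of these data known. In *ZMAT3*-KO cells 45 of them had values and 1 was called in each direction, each 2.22% of the 45, against 4.6% higher and 4.37% lower over all genes. *SLC2A1*, the glucose transporter GLUT1, fell from 7.85, 7.81 and 7.85 to 6.11, 6.03 and 6.13 log2 CPM (difference -1.75, limma adjusted p = 2.58e-13). *ISG20*, a 3′ to 5′ exonuclease, rose from 0.96, 0.64 and 0.76 to 1.76, 1.22 and 1.49 log2 CPM (difference 0.71, limma adjusted p = 0.00142), and was not called without *ZMAT3*-KO replicate 1. With no fold threshold, 16 of the 45 (35.6%) were higher, against 28.7% of all genes, and 13 (28.9%) lower, against 30.1%, and the median log2 fold change was 0.05. With sip53, 7 of 50 tested (14%) were higher by the unadjusted p, against 5.86% of all genes, and 6 (12%) were lower, against 9.28%, and none at an adjusted p of 0.05 in limma. *SLC2A1* was again among the lower genes, at 101.64 and 73.11 FPKM against 189.91 and 225.07 with siCTRL (limma unadjusted p = 0.0026). Others among them were *IGFBP3*, *TGFA*, *GYS1* and *PFKFB4*, with log2 fold changes from -1.67 to -0.50. The largest increase was that of *ALDOC*, a glycolytic aldolase, from 64.66 and 62.31 to 135.4 and 163.22 FPKM (2.34-fold, limma unadjusted p = 0.00104). *MIR210HG*, the host of the hypoxia-induced miR-210, *MAFF*, *HMOX1*, *RLF* and *LOXL2* followed with log2 fold changes from 0.83 down to 0.47. The 7 higher genes became 2 without siCTRL replicate 1, 4 without siCTRL replicate 2 and 3 without sip53 replicate 1, and the 6 lower genes became 3 without either siCTRL library or without sip53 replicate 2.

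The 36 transcripts covered a wide range of levels in siCTRL cells when read as FPKM. *MIF* (mean 569.1), *HIF1A* (129.5), *NDRG1* (125.2) and *DDIT4* (97.25) were the most abundant. *HIF1A* and *NDRG1* overlapped in their siCTRL values, and so did each pair of neighbours in the order from *JMJD6* (29.62) to *ZNF395* (13.41). *CA12* (1.02) and *CA9* (0.39) were the lowest of the genes tested, and each lay apart from its neighbours. *HIF1A* was at 5.69 times *EPAS1* with siCTRL and at 3.89 times with sip53, and this ratio varied less between replicates (6.21 and 5.17, then 3.95 and 3.82) than either gene did. The *EGLN1* to *EGLN3* ratio was 4.32 and 4.3 with siCTRL and 2.47 and 2.1 with sip53, and the *BNIP3* to *BNIP3L* ratio 0.797 and 0.754 with siCTRL and 1.04 and 1.21 with sip53. Within each pair the sip53 libraries lay on one side of the siCTRL libraries, and these ratios carry no test. Of all single genes tested, 20.1% had sip53 values wholly above the siCTRL values and 26.3% wholly below. No such share is given for ratios of genes.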

How the data were processed

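RNA-seq values of 10 HCT116 libraries were used, grouped by their labels, and columns were assigned to samples by their names. The authors of the *ZMAT3* values made stranded libraries, trimmed reads (Cutadapt), aligned them to hg38 (STAR), quantified genes (RSEM) and deposited log2 CPM. The step to log2 CPM is not given in the sources used here, and the 6 columns share one distribution, as quantile normalization gives. The deposited siRNA values were read as FPKM from their form (2 decimals, unequal sums of 708634 to 829230). Their processing is not given in the sources used here, beyond CASAVA 1.8.2, TopHat2 2.0.8 and FastQC 0.11.2, which the submitters' processing notes name with no role. Neither table holds counts, so depth is unknown and no counting intervals were made. The authors' own fold changes, p-values and means in the tables were not used. The targeted gene of the knockdown is not reported here.

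Each experiment was fitted with limma 3.58.1 (R 4.3.3; lmFit and trended eBayes, two-sided p-values, adjusted by Benjamini-Hochberg over every gene tested). The *ZMAT3* fit used log2 CPM with no filter or pseudocount. The siRNA fit used log2(FPKM + 0.1) where the mean reached 0.5 FPKM, so fold changes of low genes are understated. The *ZMAT3* libraries are described as biological triplicates of 1 knockout clone. For the siRNA RNA-seq the study speaks of independent experiments, but the labels do not tie the 2 libraries of each group to cultures, so p-values measure the spread between these libraries, which may be partly technical. The fit was tested on simulated data with independent noise in each library. That test does not cover deviations shared between libraries, as seen in the siRNA experiment. Tables, promoter searches and plots were made with Python 3.11.15, pandas 2.3.3, numpy 2.4.6 and matplotlib 3.10.9.

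The 36 genes, the 55 further pathway genes and the cell type markers were chosen with earlier results of these data known. Genes called in either experiment, and HIF subunits and regulators, were given by library, the rest mainly by fold change. Of the 55, up to 6 called genes per experiment and direction were named, largest change first. Of 5 fibroblast markers 1 was listed in each table, and of 4 endothelial markers none and 1. Alternatives were another pseudocount, filter, scaling, variance model, threshold, a replicate block and leaving out each library. The numbers of the siRNA replicates do not pair same-numbered libraries (correlation of their deviations -0.6165).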

Additional observations from a re-analysis of the deposited data

How the results depend on the processing

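In *ZMAT3*-KO cells the 5 higher and 2 lower hypoxia genes became 17 and 6 at an adjusted p alone in limma, and the higher ones became 2 at 2-fold. Leaving out a library gave 5 to 5 higher and 2 to 3 lower genes. Of the further pathway genes, 16 were higher and 13 lower at an adjusted p alone, and 0 were higher with a pseudocount of 1 CPM or at 2-fold; leaving out a library gave 0 to 1 higher. With sip53 the 10 higher and 2 lower hypoxia genes became 0 and 0 at an adjusted p of 0.05, and 4 to 8 and 0 to 2 with a library left out. The further genes became 0 and 0 at an adjusted p, 12 higher with centred libraries, 4 higher without the variance trend, and 2 to 7 higher and 3 to 7 lower with a library left out. The siRNA median of 0.23 was 0.20 with a pseudocount of 1 FPKM, 0.14 at a mean of at least 5 FPKM, 0.31 with centred libraries and 0.16 to 0.31 with a library left out. *VHL* turned to 0.05 with centred libraries.

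With a library left out, sip53 log2 fold changes that changed sign ranged from -0.85 to 0.09 for *HIF1A*, -0.01 to 0.16 for *BNIP3L*, -0.46 to 0.11 for *WSB1*, -0.36 to 0.02 for *FAM162A*, -0.23 to 0.56 for *EPAS1*, -0.53 to 0.21 for *MXI1*, -0.26 to 0.22 for *VHL*, -0.56 to 0.00 for *EGLN1*, -0.15 to 0.31 for *AK4*, -0.51 to 0.14 for *CITED2* and -0.27 to 0.07 for *TMEM45A*. The cause was not tested.

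Same-numbered *ZMAT3* libraries shared only a number (correlations -0.0387, -0.02176 and -0.09304), and a replicate block kept the counts at 5 and 2. In the siRNA experiment the replicate block gave 4 higher and 0 lower hypoxia genes and 3 higher further pathway genes. A crossed replicate block, chosen after seeing the data, gave 15 and 4 hypoxia genes and 21 and 12 further genes, with 2410 higher and 3128 lower over all genes, and 17 of the 34 hypoxia genes and 3642 of all genes then passed an adjusted p of 0.05 in limma, against 0 and 39 with no block. Depth is unknown for all libraries.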
